A study of Mus musculus with 12 samples.

Results

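The Ly6 surface proteins described here are 5 genes, Ly6a, Ly6c1, Ly6c2, Ly6e and Ly6d, picked by symbol from a table of 47643 mouse genes. Ly6a was picked because it had one of the largest falls under TNF with TGF-β, so its difference between TNF+TGF-β and unsupplemented cells is described and not tested, and the other 4 were handled in the same way. Bulk RNA was sequenced in 12 libraries from spleen cells of C57BL/6 mice that carry the label of naive CD4+ T cells. Every well received 500000 cells, and plate-bound anti-CD3 and anti-CD28, each coated at 2 µg/ml, stimulated them over 3 days. The 4 groups of 3 libraries comprised 3 of wild type (WT) cells and 1 of Tnfr2-/- cells, which lack TNF receptor 2. WT cells were left without added cytokine (Th0) or were given IL-6+TGF-β, or else TNF+TGF-β, which the Tnfr2-/- cells received too. TGF-β was given at 2 ng/ml, and its partner, TNF or IL-6, at 20 ng/ml. The libraries of a group are triplicates that the labels do not tie to separate mice or cultures, so a p-value here reflects the scatter of these samples alone, and that scatter may be technical. Neither Tnfr2-/- cells without cytokine nor cells with only TGF-β were analysed here. The labels give neither the ages of the mice nor how the Tnfr2-/- allele was made. One Tnfr2-/- column carries the number 4 and is called the library numbered 4.

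Ly6 proteins are small extracellular proteins with a three-finger fold held by disulphide bonds, and most of them are tethered to the outer membrane leaflet by a glycosylphosphatidylinositol (GPI) anchor. In the mouse many of the genes lie side by side on chromosome 15. Ly6a encodes Sca-1, a marker of blood stem cells that activated T cells also carry. Ly6c1 and Ly6c2 encode the Ly6C antigens, found on inflammatory monocytes and on memory-type T cells. Ly6e is a widely expressed member induced by interferon, and Ly6d marks early lymphoid progenitors that are committed to the B cell lineage. Ly6a and the Ly6c genes are likewise known targets of interferon in lymphocytes.

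Ly6c1 and Ly6c2 are close copies, which limits how well short reads can tell them apart, so their coding sequences are shown first. The sequences come from GENCODE M21 transcripts (GRCm38) and run from the start codon to the last codon before the stop. Ly6c1 (chromosome 15, 75044018 to 75048830, minus strand) and Ly6c2 (75108158 to 75111970, minus strand) each have 393 coding bases, of which 9 differ, an identity of 97.7%. The first 180 bases are printed, with capitals at the 6 of those 9 bases that fall in them.
Ly6c1: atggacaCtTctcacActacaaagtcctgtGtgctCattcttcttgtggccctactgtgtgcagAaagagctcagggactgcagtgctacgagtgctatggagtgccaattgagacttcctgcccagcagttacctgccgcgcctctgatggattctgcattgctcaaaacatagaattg
Ly6c2: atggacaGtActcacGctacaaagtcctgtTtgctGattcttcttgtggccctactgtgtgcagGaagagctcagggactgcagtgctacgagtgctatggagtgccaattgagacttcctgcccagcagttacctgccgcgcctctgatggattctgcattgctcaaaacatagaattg
Of the 50-base windows of the Ly6c1 transcript, 31.7% occurred without a mismatch in the Ly6c2 transcript, so the split of fragments between both genes is uncertain. A smaller part of the same windows, 5.0%, occurred in Ly6a, which was above Ly6c1 in every library.

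Ly6a (chromosome 15, 74994877 to 74998031, minus strand) is the next most like, with 81.6% of aligned coding bases identical to Ly6c2 and 81.8% identical to Ly6c1. It has 402 coding bases. In its first 180, capitals mark the 28 bases that differ from Ly6c2 or have no counterpart there.
Ly6a: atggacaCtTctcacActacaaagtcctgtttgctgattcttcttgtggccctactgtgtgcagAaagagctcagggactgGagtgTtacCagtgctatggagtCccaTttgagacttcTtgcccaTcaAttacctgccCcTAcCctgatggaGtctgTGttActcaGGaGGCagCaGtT
Only 0.4% of the 50-base windows of the Ly6a transcript occurred in Ly6c2, and 4.0% occurred in Ly6i, a neighbour that shares 86.3% of aligned coding bases with Ly6a. Ly6e (74955051 to 74959905, plus strand) and Ly6d (74762056 to 74763620, minus strand) shared 47.4% to 52.3% of aligned coding bases with the other 4, and no 50-base window.

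Upstream sequence was held for Ly6c1, Ly6c2 and Ly6a2, which the annotation lists as a transcribed pseudogene beside Ly6c2. Promoters of Ly6a, Ly6e and Ly6d are named only. The 250 bases before the start of Ly6c2 (RefSeq, GRCm38.p6, chr15:75111972-75112221, minus strand) and of Ly6a2 (chr15:75135129-75135378, minus strand) are shown because they are almost the same while the levels of the genes are not. Of 255 aligned columns, 94.5% were identical, against 57.7% between Ly6c2 and Ly6c1. Capitals mark bases that differ or are unmatched in the alignment.
Ly6c2 upstream: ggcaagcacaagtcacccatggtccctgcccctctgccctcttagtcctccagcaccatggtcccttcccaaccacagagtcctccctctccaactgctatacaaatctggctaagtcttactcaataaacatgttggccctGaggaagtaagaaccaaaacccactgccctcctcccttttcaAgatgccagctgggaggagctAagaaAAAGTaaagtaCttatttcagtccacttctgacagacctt
Ly6a2 upstream: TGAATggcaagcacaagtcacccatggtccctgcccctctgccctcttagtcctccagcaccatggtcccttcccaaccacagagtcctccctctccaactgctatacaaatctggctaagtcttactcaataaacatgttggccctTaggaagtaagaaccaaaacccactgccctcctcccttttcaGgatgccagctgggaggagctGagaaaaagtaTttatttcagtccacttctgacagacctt
Ly6a2 was listed at 0 to 0.83 FPKM over the 12 libraries, where Ly6c2 ran from 3.85 to 317.78 FPKM. FPKM counts fragments per kilobase of a transcript relative to all mapped fragments of its library, so levels are per length. The interferon response core GAAANNGAAA, searched on both strands, was not found in the 250 bases before Ly6c1, Ly6c2 or Ly6a2. Of 32851 upstream windows of the same length, 2.98% hold this motif, and a match or its absence is a description of the letters alone.

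The deleted gene was low in the Tnfr2-/- libraries: Tnfrsf1b stood at 3.19 to 4.87 FPKM there and at 17.39 to 108.17 FPKM in the 9 WT libraries. The estimated depth was 16700000 to 24000000 fragments per library. Against the label of CD4+ cells, Cd8a and Cd8b1 were both above Cd4 in 11 of the 12 libraries, and Cd4 itself ran from 4.07 to 79.6 FPKM. The 8 T cell markers, such as Cd3e and Lck, summed to between 3873 and 6158 FPKM. The 8 B cell markers, such as Ms4a1 and Cd79a, summed to 809.1 to 1277 FPKM in Th0, 436.7 to 972.2 under IL-6+TGF-β, 268.5 to 346.1 in WT under TNF+TGF-β, and 2017 to 4445 in Tnfr2-/-. In bulk RNA, fewer cells of a type and less RNA per cell cannot be told apart, and this holds for every difference below.

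Ly6a was among the most abundant transcripts of Th0 cells and was a minor one in WT cells given TNF+TGF-β. In Th0 its levels were 1348.10, 1243.14 and 1520.74 FPKM. Under IL-6+TGF-β they were 440.56, 428.12 and 394.45 FPKM, under TNF+TGF-β 20.51, 20.50 and 22.14 FPKM, and in Tnfr2-/- under TNF+TGF-β 91.06, 172.56 and 239.83 FPKM. The 4 groups did not overlap at any point, in the order Th0, IL-6+TGF-β, Tnfr2-/- and WT with TNF+TGF-β. The rank of Ly6a among all genes of a library was 62 to 78 in Th0, 271 to 355 under IL-6+TGF-β, 5018 to 5390 under TNF+TGF-β and 491 to 1549 in Tnfr2-/-.

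The mean of Ly6a in Th0 was 65.1 times that under TNF+TGF-β, a difference of -5.95 ± 0.26 on the log2(FPKM + 1) scale (SE). That scale is used for every difference below, and it understates the change of low genes. Among the 13082 genes tested, those that reached 1 FPKM in 3 or more libraries, this was the second largest fall. It lay between Gzmb (-6.71), the cytotoxic protease granzyme B, and Serpina3f (-5.95), a serine protease inhibitor gene. Under the other pair, IL-6+TGF-β, the mean was 3.26-fold lower than in the same Th0 libraries (-1.70 ± 0.26, limma, adjusted p = 0.000479). TNF+TGF-β lay a further 20.0-fold below IL-6+TGF-β (-4.26 ± 0.26, limma, adjusted p = 6.81e-07). These last comparisons share the Th0 or the TNF+TGF-β libraries with the one that chose Ly6a.

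Without TNFR2, Ly6a under TNF+TGF-β was 7.97-fold above its WT level (2.83 ± 0.26, limma, adjusted p = 1.45e-05). It was still 8.17-fold below WT Th0 (-3.12 ± 0.26, limma, adjusted p = 4.25e-06). It was also 2.51-fold below WT IL-6+TGF-β (-1.43 ± 0.26, limma, adjusted p = 0.00129), the one comparison that shares no library with the choice of Ly6a. In both of these comparisons genotype and cytokine differ together and cannot be told apart. The Tnfr2-/- libraries were spread widely, with the library numbered 4 highest, while the WT libraries under TNF+TGF-β were almost equal.

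**Figure D1:**
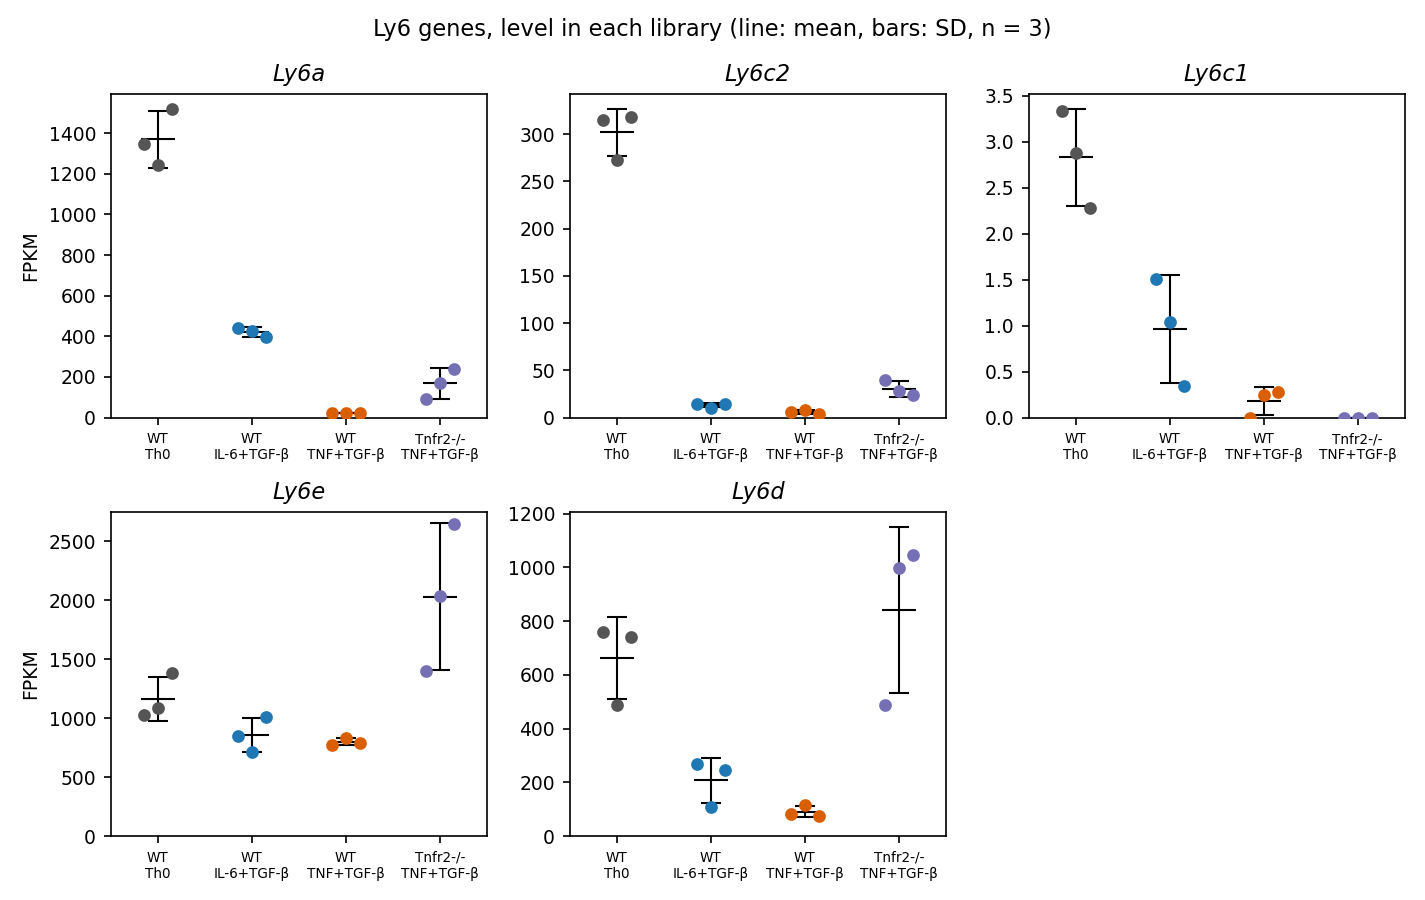
Level of each Ly6 gene in FPKM (vertical axes, each with its own linear scale from 0) in the 3 libraries of each group. Points are libraries, horizontal lines are means and bars are SD; Ly6a and Ly6c2 are highest in Th0, and Ly6e and Ly6d reach their highest libraries in Tnfr2-/-.

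Ly6c2 was low with either cytokine pair, and most of its difference from Th0 was present already with IL-6+TGF-β. Its levels were 314.98, 272.98 and 317.78 FPKM in Th0 and 14.29, 10.64 and 14.58 FPKM under IL-6+TGF-β. They were 5.45, 8.04 and 3.85 FPKM under TNF+TGF-β and 39.64, 28.10 and 23.60 FPKM in Tnfr2-/-. The groups did not overlap, and their order was Th0, Tnfr2-/-, IL-6+TGF-β and WT TNF+TGF-β, so Tnfr2-/- and IL-6+TGF-β stood in the reverse order from that of Ly6a.

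The mean of Ly6c2 in Th0 was 22.9 times that under IL-6+TGF-β (-4.43 ± 0.23, limma, adjusted p = 1.04e-07). From IL-6+TGF-β to TNF+TGF-β it was a further 2.28-fold lower (-1.10 ± 0.23, limma, adjusted p = 0.00777). The difference between TNF+TGF-β and Th0 was -5.52 ± 0.23, 52.2-fold between means and the fourth largest fall. In Tnfr2-/- Ly6c2 was 5.27-fold above WT under the same cytokines (2.23 ± 0.23, limma, adjusted p = 3.2e-05) and 2.31-fold above IL-6+TGF-β (1.13 ± 0.23, limma, adjusted p = 0.00285). Against WT Th0 it was 9.92-fold lower (-3.30 ± 0.23, limma, adjusted p = 1.44e-06). Monocyte and macrophage markers, a cell type that also carries Ly6C, summed to 190.1 to 1360 FPKM in Tnfr2-/- and 72.76 to 145 FPKM in WT under TNF+TGF-β. Lyz2 made up most of that sum, at 177.53 to 1310.05 FPKM in Tnfr2-/- and 67.11 to 132.17 FPKM in WT. Ccr2, a receptor of inflammatory monocytes on the same list, was listed at 0 to 0.02 FPKM in Tnfr2-/- and 0.25 to 0.30 FPKM in WT. The part of these cells in the difference was not tested.

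Ly6c1, the near copy, was a minor transcript throughout. It was listed at 3.33, 2.88 and 2.28 FPKM in Th0 and at 1.51, 1.04 and 0.34 FPKM under IL-6+TGF-β. It was listed at 0, 0.25 and 0.28 FPKM under TNF+TGF-β and at 0 in the 3 Tnfr2-/- libraries. On a transcript of its length, 3 fragments correspond to 0.39 to 0.561 FPKM at the estimated depth, so the values under TNF+TGF-β rest on fewer fragments than that and no fold is given for them. Ly6c1 passed the filter on low values only through its Th0 level and so had to be lower elsewhere. Its difference of -1.0 between IL-6+TGF-β and Th0 is therefore a description, with no test, and with 0.1 in place of 1 added before the logarithm it was -1.64. Between Tnfr2-/- and WT under TNF+TGF-β the difference of -0.23 (95% interval -0.72 to 0.27, limma, adjusted p = 0.463) did not pass the test, with both groups near the limit of detection. The counts of called members below leave Ly6c1 out. It stays in the summed level, in the count of groups that did not overlap and in the counts of cases across settings.

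Ly6e was abundant in every library and was the member with the smallest change in WT. Its levels were 1029.73, 1087.68 and 1378.24 FPKM in Th0, 843.96, 716.42 and 1006.66 FPKM under IL-6+TGF-β and 774.59, 831.72 and 787.52 FPKM under TNF+TGF-β. In Tnfr2-/- they were 1401.83, 2036.97 and 2644.73 FPKM, all above the 9 WT libraries. The Th0 libraries lay above those of both other WT groups, and the libraries of those latter groups overlapped. Ly6e stood between rank 27 and rank 144 in all 12 libraries.

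The difference of Ly6e between IL-6+TGF-β and Th0 was -0.45 (95% interval -0.91 to 0.02, limma, adjusted p = 0.161), and that between TNF+TGF-β and IL-6+TGF-β was -0.09 (95% interval -0.55 to 0.38, limma, adjusted p = 0.841). Neither passed the test, and the intervals leave room for a change of nearly 1 on the log2 scale in the first. Between TNF+TGF-β and Th0 the difference was -0.53 ± 0.21. In Tnfr2-/- the mean was 2.54-fold above WT under TNF+TGF-β (1.3 ± 0.21, limma, adjusted p = 0.000667). It was 1.74-fold above WT Th0 (0.76 ± 0.21, limma, adjusted p = 0.0114) and 2.37-fold above WT IL-6+TGF-β (1.21 ± 0.21, limma, adjusted p = 0.00111).

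Ly6d was high in Th0 and in Tnfr2-/- and low under either cytokine pair in WT. Its levels were 760.80, 486.53 and 740.77 FPKM in Th0 and 266.56, 109.39 and 245.56 FPKM under IL-6+TGF-β. They were 82.12, 115.35 and 75.10 FPKM under TNF+TGF-β and 487.27, 997.62 and 1044.73 FPKM in Tnfr2-/-. Th0 overlapped with Tnfr2-/-, and IL-6+TGF-β overlapped with TNF+TGF-β through its replicate 2.

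Ly6d was 3.2-fold lower under IL-6+TGF-β than in Th0 (-1.75 ± 0.36, limma, adjusted p = 0.00437). From IL-6+TGF-β to TNF+TGF-β the difference of -1.10 (95% interval -1.90 to -0.31, limma, adjusted p = 0.0723) did not pass the test, while without replicate 2 of IL-6+TGF-β it was -1.51 with an adjusted p of 0.0105. Between TNF+TGF-β and Th0 it was -2.85 ± 0.36, 7.29-fold between means and the 55th largest fall. In Tnfr2-/- it was 9.28-fold above WT under TNF+TGF-β (3.15 ± 0.36, limma, adjusted p = 5.86e-05) and 4.07-fold above IL-6+TGF-β (2.04 ± 0.36, limma, adjusted p = 0.00119). Against WT Th0 the difference of 0.30 (95% interval -0.50 to 1.09, limma, adjusted p = 0.529) did not pass.

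**Figure D2:**
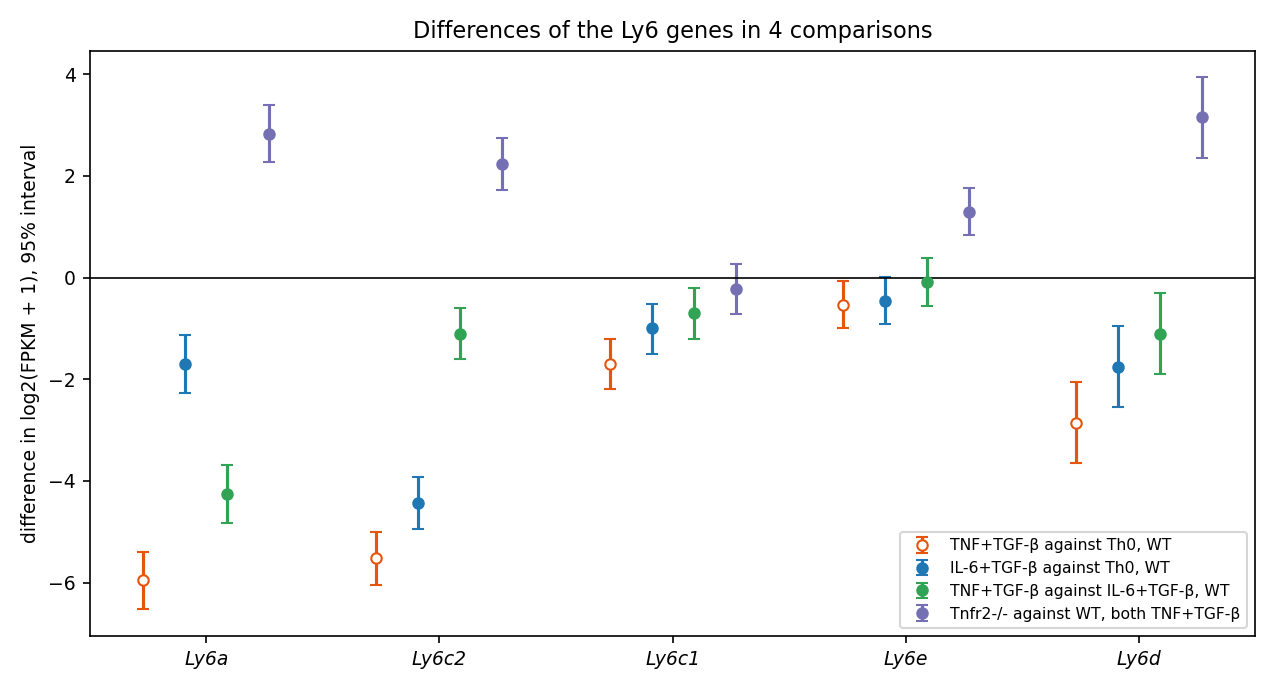
Difference in log2(FPKM + 1) of each Ly6 gene in 4 comparisons (vertical axis), with points at the fitted difference and bars as 95% intervals from limma. The open points are TNF+TGF-β against Th0, the comparison that chose Ly6a; against WT, Tnfr2-/- lies above 0 for Ly6a, Ly6c2, Ly6e and Ly6d, at 1.3 to 3.15, and Ly6c1 lies at -0.23.

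Read side by side, the members fell into different patterns. Among the 4 members other than Ly6c1, 3 fell under IL-6+TGF-β against Th0, and Ly6e did not pass; 9.15% of all genes tested were lower in that comparison and 23.2% changed in either direction. The median difference of the 4 was -1.7, against 0.037 over all genes tested. From IL-6+TGF-β to TNF+TGF-β, Ly6a and Ly6c2 fell, 2 of the 4, where 12.8% of genes changed and 5.5% were lower. In Tnfr2-/- against WT, 4 of these 4 rose, where 37.4% of genes changed and 19.9% were higher, and the medians were 2.5 for the 4 and 0.002 for all genes. These comparisons share the Th0 or the WT TNF+TGF-β libraries with the one that chose Ly6a. The place of Ly6a in their counts and medians was thus favoured by that choice.

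Against WT Th0, Ly6e rose and Ly6a and Ly6c2 fell in Tnfr2-/-, where 48.1% of genes changed, 29.0% higher and 19.1% lower. Against WT IL-6+TGF-β, Ly6c2, Ly6e and Ly6d rose and Ly6a fell, where 38.5% changed, 21.5% higher and 17.0% lower. Both comparisons differ in genotype and cytokine at once, and the one against Th0 shares its Th0 libraries with the choice of Ly6a. In TNF+TGF-β against Th0, the libraries of the groups did not overlap for any of the 5, as for 55.1% of all genes, and 31.7% of all genes were called there; since that comparison chose Ly6a, nothing is read from the count.

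The summed level of the 5 genes was 3093 to 3960 FPKM in Th0, 1266 to 1662 under IL-6+TGF-β, 882.7 to 975.9 under TNF+TGF-β and 2020 to 3953 in Tnfr2-/-. Their makeup differed more than the sum. Ly6a made up 38.4% to 40.2% of it in Th0 and 2.1% to 2.49% under TNF+TGF-β, where Ly6e made up 85.2% to 88.6%. In Tnfr2-/- the share of Ly6a was 4.51% to 6.07% and that of Ly6d was 24.1% to 30.8%, above the 8.45% to 11.8% of Ly6d in WT under TNF+TGF-β.

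B cell markers moved in the direction of Ly6d, and between Tnfr2-/- and WT also in that of Ly6e, which changed little within WT. In Tnfr2-/- against WT under TNF+TGF-β, 8 of the 8 B cell markers rose, where 19.9% of all genes did. The mean of their sum was 11.4 times higher, where Ly6d was 9.28 and Ly6e 2.54 times higher. All 8 markers were lower under TNF+TGF-β than in Th0, where 31.7% of all genes were called. The Th0 sum was 3.68 times higher there, and the Th0 mean of Ly6e 1.46 times higher. Under IL-6+TGF-β 2 of 8 were lower, where 9.15% of all genes were, and the Th0 sum was 1.4 times higher. As a percentage of the B marker sum of its own library, Ly6d stood at 58.0% to 64.5% in Th0, 25.0% to 28.7% under IL-6+TGF-β, 28.0% to 33.3% under TNF+TGF-β and 23.5% to 27.6% in Tnfr2-/-. Relative to these markers, Ly6d was thus higher in Th0 than in the other groups, and Tnfr2-/- lay below WT under the same cytokines. That ratio was looked at after the values were seen.

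Ly6e behaved differently by the same measure, at 240% to 293% of the B marker sum in WT under TNF+TGF-β and 56.4% to 69.5% in Tnfr2-/-. Ly6a was at 5.92% to 8.24% and 4.51% to 5.40% in those groups, and at 114% to 154% in Th0. As a percentage of the T cell marker sum, Ly6a stood at 0.391% to 0.433% in WT under TNF+TGF-β and at 1.64% to 6.19% in Tnfr2-/-. Which cells of the culture made each transcript, and the part of B cells in the differences between Tnfr2-/- and WT, was not tested.

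**Figure D3:**
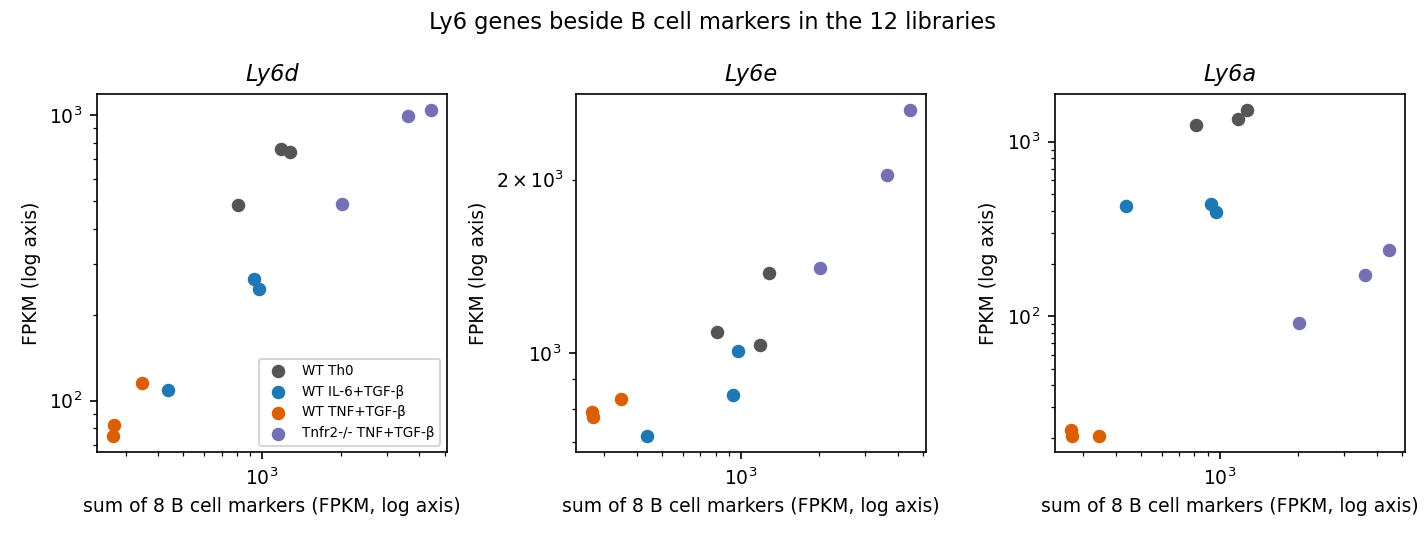
Levels of Ly6d, Ly6e and Ly6a (vertical axes, FPKM, log scale) against the summed level of 8 B cell markers (horizontal axis, FPKM, log scale), with 1 point per library. The Tnfr2-/- libraries lie farthest right, at 2017 to 4445 FPKM of B cell markers; at that end Ly6d and Ly6e have their highest libraries, while Ly6a is below its Th0 levels of 1243.14 to 1520.74 FPKM.

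Other markers also moved in Tnfr2-/-. Monocyte and macrophage markers rose for 4 of the 6 tested against WT under TNF+TGF-β, where 19.9% of all genes rose. Of those tested, Adgre1 and Itgam passed the filter on low values only through their Tnfr2-/- levels, which favours a rise. Nothing is therefore read from this count. Neutrophil markers summed to 112.1 to 277.7 FPKM in Tnfr2-/- and 2.36 to 44.26 FPKM in WT under TNF+TGF-β. S100a8 and S100a9 made up most of that sum, at 64.36 to 171.05 and 47.70 to 106.34 FPKM in Tnfr2-/-. The other markers of the list did not show the rise: Ly6g and Mpo were at 0 in both groups. Csf3r was at 0 to 0.33 FPKM in Tnfr2-/- and 0.08 to 0.16 FPKM in WT, and Elane was at 0 in all 12 libraries. Nkg7, a gene of NK cells and cytotoxic T cells, was lower, at 63.34 to 223.52 FPKM in Tnfr2-/- and 880.78 to 1023.99 FPKM in WT, and made up most of the sum of the NK list, while its markers Ncr1 and Klrb1c stayed at or below 0.63 FPKM in the 12 libraries. CD8 markers summed to less as well, 32.01 to 82.72 FPKM against 319 to 366.9 FPKM. Cd4 was also lower, at 10.32 to 17.63 FPKM in Tnfr2-/- and 42.32 to 79.6 FPKM in WT under TNF+TGF-β. Zbtb7b, the other marker of the CD4 list, overlapped, at 3.04 to 5.23 FPKM and 3.32 to 4.93 FPKM. The part of these cells in the values of the Ly6 genes was not tested. Endothelial markers, a cell type in which Ly6a and Ly6c1 are well known, summed to at most 41.7 FPKM, nearly all of it Pecam1. Cdh5, Kdr and Tek stayed at or below 0.11 FPKM, with Emcn at 0 in all 12 libraries.

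Few genes around the members on chromosome 15 were expressed. Of the 31 annotated genes from Psca to Ly6g that the table holds, 9 passed the filter, and no other reached more than 1.73 FPKM. Of these 9, 5 are the members, and the others are Them6, Lynx1, Ly6k and Ly6i. The members span 349915 bases from Ly6d to Ly6c2. Between them, Gml, Gml2 and the steroid hydroxylase genes Cyp11b1 and Cyp11b2 stayed at or below 0.20 FPKM.

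**Figure D4:**
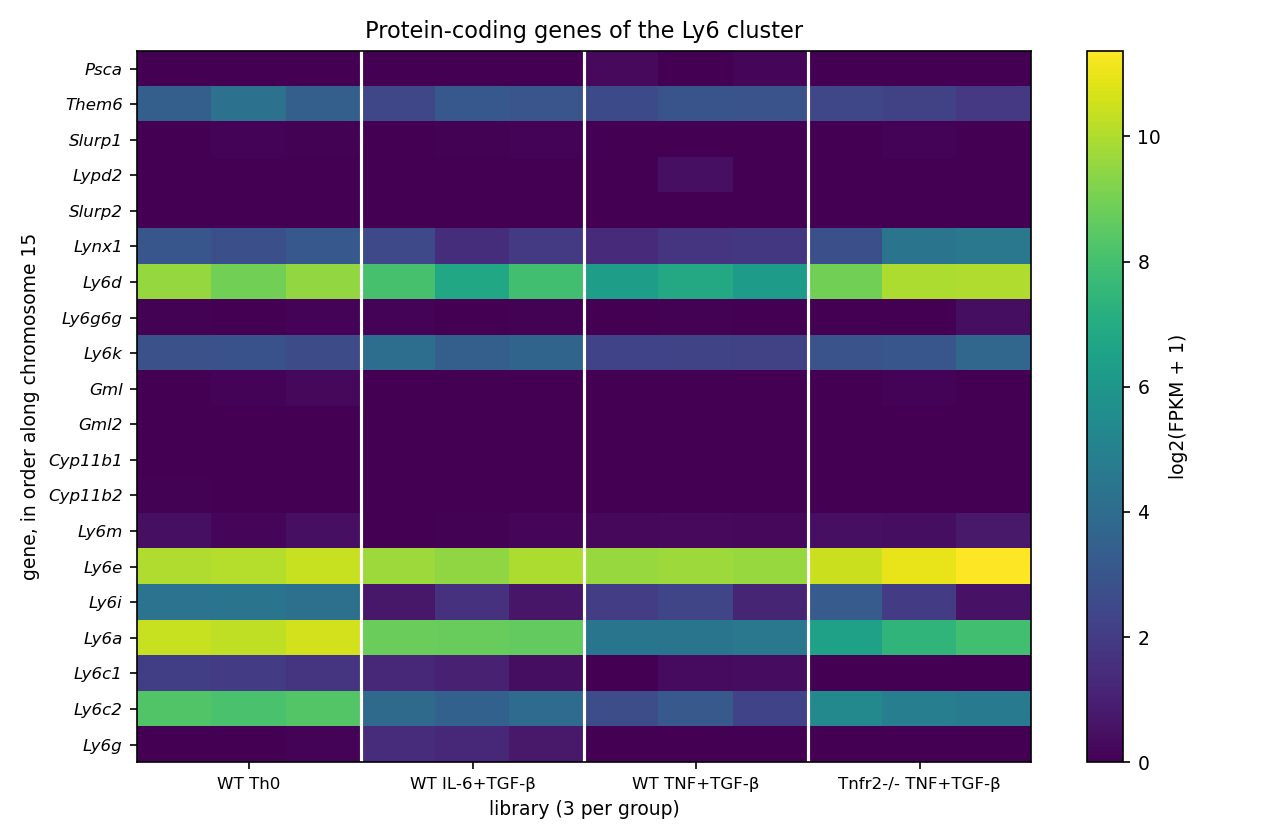
Level as log2(FPKM + 1) (colour) of the protein-coding genes from Psca to Ly6g, in their order along chromosome 15 (rows), in the 12 libraries (columns, 3 per group). Ly6d, Ly6e, Ly6a and Ly6c2 are bright among dark neighbours, and their rows change between groups in different ways.

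Ly6i, which lies between Ly6e and Ly6a and resembles Ly6a most in sequence, was low. Its levels were 19.17, 19.97 and 17.14 FPKM in Th0, 0.65, 2.12 and 0.61 FPKM under IL-6+TGF-β, 3.15, 4.22 and 1.24 FPKM under TNF+TGF-β and 8.66, 3.07 and 0.47 FPKM in Tnfr2-/-. It fell against Th0 under IL-6+TGF-β (-3.28 ± 0.55, limma, adjusted p = 0.000979) and under TNF+TGF-β (-2.43 ± 0.55, limma, adjusted p = 0.00591). Between Tnfr2-/- and WT the difference was 0.08 (95% interval -1.12 to 1.29, limma, adjusted p = 0.921), and its sign changed with the pseudocount and the scaling. Ly6i thus shared the fall of Ly6a under both pairs, but its Tnfr2-/- libraries overlapped with WT where those of Ly6a did not.

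Ly6k, a member known from testis and some tumours, was at 6.09, 6.38 and 5.07 FPKM in Th0 and 16.25, 9.76 and 11.52 FPKM under IL-6+TGF-β, a rise of 0.96 ± 0.23 (limma, adjusted p = 0.0114). It was lower under TNF+TGF-β, at 3.90, 4.03 and 3.57 FPKM (-1.46 ± 0.23 against IL-6+TGF-β, limma, adjusted p = 0.00119). Ly6k was therefore higher with IL-6+TGF-β, a direction that none of the 5 members took. Without replicate 3 of Th0 the rise had an adjusted p of 0.0503. In Tnfr2-/- it was at 6.49, 7.26 and 12.64 FPKM, above WT by 0.97 ± 0.23 (limma, adjusted p = 0.00736).

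Lynx1, which modulates nicotinic acetylcholine receptors, was at 7.27, 5.79 and 7.80 FPKM in Th0, 4.62, 1.83 and 2.85 FPKM under IL-6+TGF-β and 1.61, 2.25 and 2.64 FPKM under TNF+TGF-β. In Tnfr2-/- it was at 5.83, 20.04 and 22.70 FPKM, 7.47-fold above WT (2.26 ± 0.41, limma, adjusted p = 0.00119). Its fall from Th0 to TNF+TGF-β (-1.33 ± 0.41, limma, adjusted p = 0.0263) lost the call without any 1 of 4 of the 6 libraries, replicates 1 and 3 of Th0 and replicates 1 and 2 of TNF+TGF-β, with adjusted p of 0.0658 to 0.0878, and 0.0676 with the looser filter on low values.

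Of 38 further genes of the Ly6 and urokinase receptor family, 38 were in the table, 12 were at 0 in all 12 libraries and 6 passed the filter. Ly6i, Ly6k and Lynx1 lie in the cluster, and the other 3, Plaur, Ly6g5b and Lypd6b, lie elsewhere in the genome. Against Th0, 1 of the 6 rose and 3 fell under TNF+TGF-β, and 1 rose and 2 fell under IL-6+TGF-β. Over all genes tested, 31.7% were called in the first comparison, and 14.1% rose and 9.15% fell in the second. In Tnfr2-/- against WT, 3 of the 6 rose and 2 fell, against 19.9% and 17.5% of all genes.

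Ly6g5b, a family gene on chromosome 17, went opposite to Ly6a. It was at 0.51, 1.03 and 0.20 FPKM in Th0, 1.27, 1.96 and 1.83 FPKM under IL-6+TGF-β and 49.07, 56.89 and 54.62 FPKM under TNF+TGF-β. In Tnfr2-/- it was at 6.46, 5.34 and 0.84 FPKM. The WT libraries under TNF+TGF-β thus stood apart from all 9 others. Against Th0 the rise was 5.14 ± 0.42 (limma, adjusted p = 3.3e-06) and against IL-6+TGF-β it was 4.35 ± 0.42, or 31.7-fold (limma, adjusted p = 2.29e-05). Tnfr2-/- was 12.7-fold below WT (-3.62 ± 0.42, limma, adjusted p = 5.86e-05). Its neighbour Csnk2b, a kinase subunit gene looked at after these values were seen, differed by 0.24 between TNF+TGF-β and Th0 (limma, adjusted p = 0.13) and by -0.70 between Tnfr2-/- and WT (limma, adjusted p = 0.000584). Both genes lie on the minus strand and do not overlap in the annotation.

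Plaur, the urokinase receptor, was at 20.11, 27.08 and 18.04 FPKM in Th0, 9.32, 17.30 and 8.66 FPKM under IL-6+TGF-β, 3.44, 7.36 and 3.12 FPKM under TNF+TGF-β and 22.87, 40.81 and 31.38 FPKM in Tnfr2-/-. It fell from Th0 to TNF+TGF-β (-2.07 ± 0.32, limma, adjusted p = 0.000511) and was 6.83-fold above WT in Tnfr2-/- (2.57 ± 0.32, limma, adjusted p = 9.9e-05). Lypd6b was lowest under IL-6+TGF-β: at 3.10, 4.39 and 3.35 FPKM in Th0 and 2.46, 3.22 and 1.91 FPKM under TNF+TGF-β, it fell to 0.25, 0.40 and 0.13 FPKM under IL-6+TGF-β (-1.87 ± 0.23 against Th0, limma, adjusted p = 0.000104). It was lower in Tnfr2-/-, at 1.53, 0.78 and 0.40 FPKM, than in WT (-0.92 ± 0.23, limma, adjusted p = 0.00958).

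**Figure D5:**
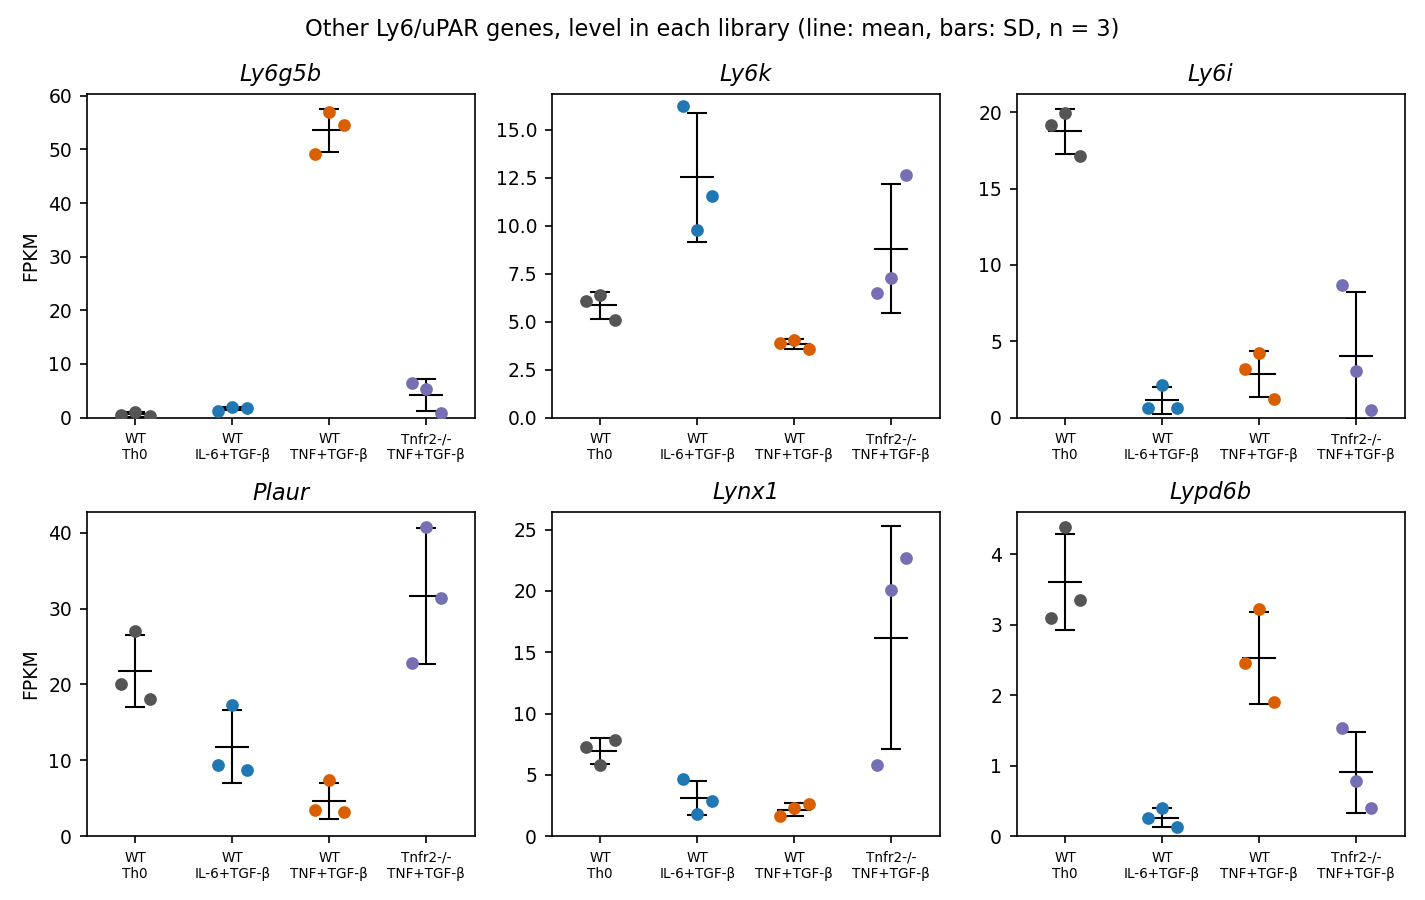
Level in FPKM (vertical axes, each with its own linear scale from 0) of 6 other family genes in the 3 libraries of each group, with points as libraries, lines as means and bars as SD. Ly6g5b is high in WT under TNF+TGF-β alone, at 49.07 to 56.89 FPKM, and Ly6k has its highest mean under IL-6+TGF-β, at 9.76 to 16.25 FPKM; the axes end at 0, which hides the lower tip of 1 bar.

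Ly6g, the antigen that marks neutrophils, did not reach the filter. It was listed at 1.73, 1.39 and 0.74 FPKM under IL-6+TGF-β, at 0.08 FPKM in replicate 3 of Th0 and at 0 in the other 8 libraries. Its values under IL-6+TGF-β lay above the 0.369 to 0.531 FPKM that 3 fragments give.

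Genes for the enzymes that build and attach GPI anchors were counted next. Of 27 tested, 3 rose and none fell under IL-6+TGF-β against Th0, where 14.1% of all genes rose and 9.15% fell, and the median was 0.11 against 0.037 for all genes. Under TNF+TGF-β 2 rose and 1 fell, where 31.7% of all genes were called, and the median was 0.19 against 0.068. Pigz, a mannosyltransferase gene, had the largest difference among the genes counted in both, 2.52 ± 0.20 and 0.79 ± 0.20. It was at 0 to 0.10 FPKM in Th0, 3.75 to 6.41 FPKM under IL-6+TGF-β and 0.69 to 1.03 FPKM under TNF+TGF-β. Pigz passed the filter on low values only through its IL-6+TGF-β level. Its differences are therefore a description, with no test, though the counts of genes that rose include it. In Tnfr2-/- against WT 6 rose and 2 fell, where 19.9% and 17.5% of all genes did, and the median was -0.037 against 0.002. Pgap1, which remodels the lipid of the anchor, rose by 1.07 ± 0.25 (limma, adjusted p = 0.00564), Dpm3, a subunit of the enzyme that makes the mannose donor, by 0.91 ± 0.23 (limma, adjusted p = 0.00831) and Pigc, of the first enzyme complex of the pathway, by 0.71 ± 0.17 (limma, adjusted p = 0.00694), while Pigg fell by 0.77 ± 0.17 (limma, adjusted p = 0.00427).

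Other GPI-anchored proteins of T cells moved in both directions in WT. Of 14 tested, 6 rose and 2 fell under IL-6+TGF-β and 3 rose and 3 fell under TNF+TGF-β, both against the same Th0 libraries. Over all genes tested, 14.1% rose and 9.15% fell in the first, and 31.7% were called in the second. Efna4, among the 14, passed the filter on low values only through its IL-6+TGF-β level. It was at 1.24 to 2.09 FPKM there and 0.55 to 0.72 FPKM in Th0, so its place in the counts is no test. Prnp, the prion protein gene, rose by 3.30 ± 0.15 (limma, adjusted p = 3.51e-08) and 3.79 ± 0.15 (limma, adjusted p = 1.6e-08), and Nt5e, the ectoenzyme CD73, by 2.63 and 2.24. Thy1, a classical T cell surface marker, rose by 1.59 ± 0.26 and 1.98 ± 0.26 (limma, adjusted p = 0.000786 and 0.000144). Izumo1r, the folate receptor 4 of regulatory T cells, fell by 3.07 and 1.75 (limma, adjusted p = 1.37e-05 and 0.000902). In Tnfr2-/- against WT 4 rose and 5 fell, where 19.9% and 17.5% of all genes did. Among them were Cd55, a complement regulator (2.64 ± 0.36, limma, adjusted p = 0.000166), Cd24a, which B cells also carry (2.40 ± 0.17, limma, adjusted p = 2.7e-06), and, lower, Izumo1r (-2.03 ± 0.30, limma, adjusted p = 0.000275), Cd160, a receptor of cytotoxic lymphocytes (-2.0 ± 0.29, limma, adjusted p = 0.000264), and Thy1 (-1.74 ± 0.26, limma, adjusted p = 0.000333).

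Genes of interferon signalling, the pathway that induces Ly6a and Ly6e, split. Of 16 tested, 3 rose and 6 fell under IL-6+TGF-β against Th0, and 6 rose and 6 fell under TNF+TGF-β. The shares over all genes were 14.1% higher and 9.15% lower in the first and 31.7% called in the second. The receptor genes Ifngr1 and Ifngr2 rose under IL-6+TGF-β by 1.04 and 1.10, and by 0.75 and 1.07 under TNF+TGF-β (limma, adjusted p from 0.000388 to 0.00359). Irf1, a transcription factor gene, fell. It was at 247.38 to 292.91 FPKM in Th0, 54.63 to 84.34 FPKM under IL-6+TGF-β and 38.48 to 69.51 FPKM under TNF+TGF-β. Its differences were -2.05 ± 0.22 and -2.41 ± 0.22 (limma, adjusted p = 2.83e-05 and 7.19e-06). Usp18, an interferon-induced inhibitor of the receptor, differed by -1.78 ± 0.27 and -1.77 ± 0.27 (limma, adjusted p = 0.00046 and 0.000435). Irf7 fell by 1.42 ± 0.39 under IL-6+TGF-β (limma, adjusted p = 0.0208), and Jak2, a receptor kinase, rose by 1.88 ± 0.25 under TNF+TGF-β (limma, adjusted p = 0.000163).

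In Tnfr2-/- against WT, 8 of these 16 rose and 3 fell, where 19.9% and 17.5% of all genes did. Usp18 rose by 1.63 ± 0.27 (limma, adjusted p = 0.000683), Irf2 by 1.29 ± 0.29 (limma, adjusted p = 0.00513) and Irf9 by 1.09 ± 0.18 (limma, adjusted p = 0.000742). Jak2 fell by 1.54 ± 0.25 (limma, adjusted p = 0.000618). Irf1 was at 59.89 to 72.46 FPKM in Tnfr2-/- and at 38.48 to 69.51 FPKM in WT under TNF+TGF-β, a difference of 0.41 that did not pass (95% interval -0.06 to 0.89, limma, adjusted p = 0.153). The lists were counted with earlier results of these data known.

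The genes whose levels ran closest to each member over the 12 libraries differed by member. For Ly6a they were Gimap4 (Pearson r = 0.965), a GTPase of lymphocytes, Zc3h12d (0.962), Gbp3 (0.955), an interferon-induced guanylate-binding protein, Grsf1 (0.954) and Slc25a33 (0.951). Gimap4 stood at 490.93 to 558.43 FPKM in Th0, 276.74 to 318.57 under IL-6+TGF-β, 132.38 to 160.66 under TNF+TGF-β and 224.65 to 253.36 in Tnfr2-/-, the order of groups seen for Ly6a but over a smaller range. For Ly6c2 they were Gimap5 (0.981), Phf11b (0.975) and Gimap7 (0.974), and for Ly6c1 Tomm20 (0.967), Mpp6 (0.964) and Tmem158 (0.964).

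For Ly6e the likest genes were Cd37 (0.982), a tetraspanin of B cells, Gapt (0.981) and Lyn (0.974), a kinase of B and myeloid cells. For Ly6d they were Napsa (0.996), Smagp (0.987) and Ly86 (0.987), which encodes the partner of RP105, a surface protein of B cells. Among the members themselves r was 0.846 between Ly6e and Ly6d, 0.807 between Ly6a and Ly6c2, 0.644 between Ly6a and Ly6d and 0.24 between Ly6a and Ly6e. These values describe 12 libraries that share groups, wells of the same design and normalisation, so they carry no test.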

How the data were processed

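Per the submitters' processing notes, the tools were Trimmomatic, STAR 2.5.4 and RSEM 1.3.1, on mm10. Per the file headers, the authors deposited gene-level RSEM results for each library, without naming the quantity. The deposited values were read as FPKM made by the authors, since their sums differed between libraries (689045 to 828161). Multiplied by transcript length they summed to 900467 to 1010096. GENCODE M21 held 99.1% of the identifiers. Depth was not given and was estimated from the steps between low values, a method chosen after the data were seen, so limits of 3 fragments are approximate and cover counting error only. Values were taken as log2(FPKM + 1), genes reaching 1 FPKM in 3 or more libraries were kept, and limma 3.58.1 (R 4.3.3, trended variance, 1 mean per group over 12 libraries) was fitted, with Benjamini-Hochberg adjustment over all 13082 genes and calls at an adjusted p under 0.05. The fit was tested on simulated data. Coding sequences were aligned with Biopython 1.88.

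The members and lists were chosen with earlier results of these data known. Named genes were the members, tested family genes, the 5 (Ly6a) or 3 likest genes, up to 5 called genes per list by size of difference, neighbours and cell markers. The alternatives were a pseudocount of 0.1, a looser filter, other scalings, 2-group fits, a replicate block, summing both Ly6c genes and leaving out each library.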

Additional observations from a re-analysis of the deposited data

How the results depend on the processing

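Over the 6 comparisons, the members' differences were unchanged in 212 cases, moved in 3 and lost the call in 1 under other settings. With 1 library left out, they were unchanged in 177 cases, gained a call in 2 and reversed in 1. Unchanged means the same direction and call. In TNF+TGF-β against Th0, where members were not tested, it means a shift smaller than the SD within groups, and moved means a larger one. The lost call was that of Ly6c1 under IL-6+TGF-β against Th0, described above without a test. Rescaling to TPM, which moved the median difference of all genes between TNF+TGF-β and Th0 from 0.068 to 0.221 and between Tnfr2-/- and WT from 0.002 to -0.105, gave -5.80 for Ly6a and -0.36 for Ly6e in TNF+TGF-β against Th0. It moved the share of called genes that were higher from 58.9% to 72.6% and from 53.2% to 42.7% in these comparisons. A pseudocount of 0.1 gave -3.61 for Ly6c1 there and -1.64 under IL-6+TGF-β against Th0. Between both cytokine pairs in WT, differences with 1 library left out ran from -0.95 to -0.50 for Ly6c1 (-0.95 with an adjusted p of 0.0127 without replicate 3 of IL-6+TGF-β), from -0.21 to 0.04 for Ly6e (0.04 without the same library) and from -1.51 to -0.87 for Ly6d. Ly6i in Tnfr2-/- against WT was -0.08 with a pseudocount of 0.1, -0.04 as TPM and from -0.58 (without replicate 1 of Tnfr2-/-) to 0.78 with 1 library left out, -0.27 without replicate 3 of TNF+TGF-β among them. Fitting only both groups gave 3328 called genes in place of 5038 for Tnfr2-/- against IL-6+TGF-β. The causes were not tested.

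Of 15 same-numbered pairs, 5 had correlated deviations above 0.1 (range -0.284 to 0.344). All 5 were between WT groups, while same-numbered pairs with Tnfr2-/- ran from -0.284 to 0.082. The main fit did not use the numbers as pairs, and whether they pair the WT samples was not decided. With the replicate block, 3253 genes were called in Tnfr2-/- against WT in place of 4898, and no call of a member changed, while Ly6k was at 0.65 there (limma, adjusted p = 0.0533). Under IL-6+TGF-β against Th0 the block also called Plaur (-0.88, adjusted p = 0.00226) and Ly6g5b (0.79, adjusted p = 0.0232). At the estimated depth, Ly6c1 under TNF+TGF-β and in Tnfr2-/- was at or below the limit of 3 fragments.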
